A study of Mus musculus with 6 samples.

Results

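AP-1 and immediate-early genes are 10 genes, Fos, Fosb, Jun, Junb, Jund, Egr1, Ier2, Ier3, Myc and Atf3, chosen by name from the 21362 genes of the deposited tables. All 10 were present in the liver files and all 10 were tested. Their mRNA levels were compared between livers of 6 Mettl14f/f male mice, which carry floxed alleles of Mettl14, a subunit of the enzyme that writes N6-methyladenosine (m6A) on RNA. The mice were placed on a high-fat diet (HFD) at 8 weeks of age, and after 10 weeks 3 mice received AAV8-TBG-GFP (labelled WT) and 3 mice AAV8-TBG-Cre (labelled METTL14 KO). The livers were taken 8 weeks after injection for RNA-seq. Both groups therefore shared the floxed alleles, sex, diet and an AAV8 vector, and differed in its cargo. Livers are numbered as in the labels and called GFP livers 1 to 3 and Cre livers 1 to 3. The TBG promoter directs expression from the vector to hepatocytes, and the other cells of the liver also contribute RNA to each library.

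Immediate-early genes are transcribed within minutes of a stimulus, without the need for newly made protein, and many of their mRNAs are short-lived. Fos and Jun family proteins pair to form AP-1, a transcription factor that binds DNA in front of genes for growth, matrix remodelling and inflammation. Growth factor receptors and stress signals reach these genes through MAP kinases, and phosphatases encoded by some of the induced genes switch the kinases off again. In liver the same genes are known to be induced by partial hepatectomy, toxic injury, fasting signals and the handling of tissue.

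Promoter sequences are shown for Fosb, the only one of the 10 genes past the unadjusted threshold below, and for Fos, Jun and Atf3, whose values in the Cre livers were the most uneven of the AP-1 family. RefSeq on GRCm38.p6 held promoters for 7 of the 10 genes, and Egr1, Ier2 and Myc were not among them. Each sequence is the 250 bases before the annotated start, written 5′ to 3′ on the strand of the gene. Fos lies on the plus strand (chr12:85473640-85473889), and Fosb (chr7:19310046-19310295), Jun (chr4:95052223-95052472) and Atf3 (chr1:191183334-191183583) lie on the minus strand. Capitals mark matches to TGACG, TGACATCA or TTACGTCA, which are relatives of the element bound by CREB, ATF and AP-1 proteins.
Fos: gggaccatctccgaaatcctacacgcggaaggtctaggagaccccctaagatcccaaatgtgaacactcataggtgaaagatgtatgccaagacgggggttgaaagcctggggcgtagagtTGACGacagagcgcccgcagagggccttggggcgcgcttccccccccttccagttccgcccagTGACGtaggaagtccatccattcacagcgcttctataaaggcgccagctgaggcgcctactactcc
Fosb: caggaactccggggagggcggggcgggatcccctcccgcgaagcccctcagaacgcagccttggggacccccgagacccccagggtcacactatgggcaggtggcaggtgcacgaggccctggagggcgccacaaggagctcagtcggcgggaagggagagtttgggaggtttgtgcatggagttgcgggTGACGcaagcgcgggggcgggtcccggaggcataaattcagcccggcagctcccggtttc
Jun: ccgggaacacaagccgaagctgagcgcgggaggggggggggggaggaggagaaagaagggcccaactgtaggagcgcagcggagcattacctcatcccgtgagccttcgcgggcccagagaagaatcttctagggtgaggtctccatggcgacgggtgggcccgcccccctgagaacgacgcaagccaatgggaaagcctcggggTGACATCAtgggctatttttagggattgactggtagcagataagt
Atf3: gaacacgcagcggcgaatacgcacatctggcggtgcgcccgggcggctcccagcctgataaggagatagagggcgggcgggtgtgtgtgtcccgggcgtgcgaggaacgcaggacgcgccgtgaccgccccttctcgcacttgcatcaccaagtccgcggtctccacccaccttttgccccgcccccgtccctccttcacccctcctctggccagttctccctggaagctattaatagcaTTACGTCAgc

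The letters TGACG began 129 and 66 bases before the start of Fos and 60 bases before that of Fosb. They also began 106 bases before the start of Junb. TGACATCA lay 45 to 38 bases before the start of Jun, and TTACGTCA lay 10 to 3 bases before the start of Atf3, where it overlaps TGACG on the other strand. Both strands of 27025 promoters of the same length were searched. TGACG occurred in 19.8% of them, TGACATCA in 3.41% and TTACGTCA in 0.525%. The full element TGACGTCA (1.77% of promoters), the AP-1 site TGACTCA (5.16%) and the CArG box bound by serum response factor (1.62%) did not occur in these windows of the 7 genes. Bases outside the windows were not searched. These matches describe the letters alone.

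Each library held between 20356440 and 21010508 expected counts. Levels in CPM are counts scaled to a common library size, after each library total was multiplied by its TMM normalization factor. These factors ranged from 0.913 in GFP liver 3 to 1.18 in Cre liver 2. Mettl14 itself stood at 6.30, 6.43 and 5.81 CPM in GFP livers 1, 2 and 3. It stood at 4.96, 5.38 and 4.86 CPM in Cre livers 1, 2 and 3, the order used for all values below. The groups did not overlap in CPM but did in FPKM. They also overlapped in unscaled counts, with 131 in Cre liver 2 against 124, 126 and 111 in the GFP livers. The difference was small (log2 fold change -0.29 ± 0.15 SE, edgeR adjusted p = 0.337). The gene total does not separate the floxed exons from the rest. Cre liver 2 had the most genes with a count, 16974 against 16121 to 16426 in the other livers. Markers of some other cell types were also higher in Cre livers. The summed level of 8 cholangiocyte markers ranged from 72.2 to 128 CPM in GFP and from 306 to 574 CPM in Cre livers. In every liver most of this sum came from Spp1, which is also listed among the AP-1 targets below. For 8 stellate cell and fibroblast markers the ranges were 205 to 309 and 425 to 913 CPM, with the highest sum in Cre liver 2.

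The 10 genes covered a wide range of levels. On the scale of FPKM, which corrects for transcript length, Jund had the highest mean in GFP livers (44.9 ± 2.90 FPKM, SD, n = 3), followed by Egr1 (27.4 ± 15.6), Junb (22.1 ± 7.42), Jun (16.6 ± 3.06) and Ier2 (14.8 ± 5.35). Lower levels were measured for Myc (5.52 ± 5.65), Fos (2.80 ± 0.473), Atf3 (1.41 ± 0.150), Ier3 (1.12 ± 0.350) and Fosb (0.363 ± 0.146). Neighbours in this order overlapped between livers, except that Fos lay above Atf3 and Ier3 above Fosb in every GFP liver. Jund thus had the highest mean of the Jun genes, and Fos stood above Fosb at a low level.

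Fosb was lower in Cre livers, and it was the only one of the 10 genes past the unadjusted threshold. At an adjusted p under 0.05 (edgeR, Benjamini-Hochberg over all genes tested), 0 of 10 genes were called, beside 0.931% of all 13431 genes tested. DESeq2 called 1, Fosb, and also called 6.33% of the 18416 genes it fitted. The threshold of the study combines an unadjusted p under 0.05 with a change of 1.2-fold or more, and there edgeR called 0 genes higher (12.0% of all genes tested) and 1 gene lower (8.41% of all genes tested), again Fosb. Over all genes these were 1618 higher and 1129 lower, a split that moved to 1922 and 737 with upper quartile factors and to 1880 and 365 with limma on log2(FPKM + 1). Only for Fosb did all Cre livers lie on one side of all GFP livers, which was the case for 27.0% of all genes tested. The log2 fold change was positive for 6 genes and negative for 4, with a median of 0.15, while the median of all genes tested was -0.0065 and 49.0% of them were positive. With 3 mice per group the exact two-sided permutation test cannot go below p = 0.1.

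**Figure D1:**
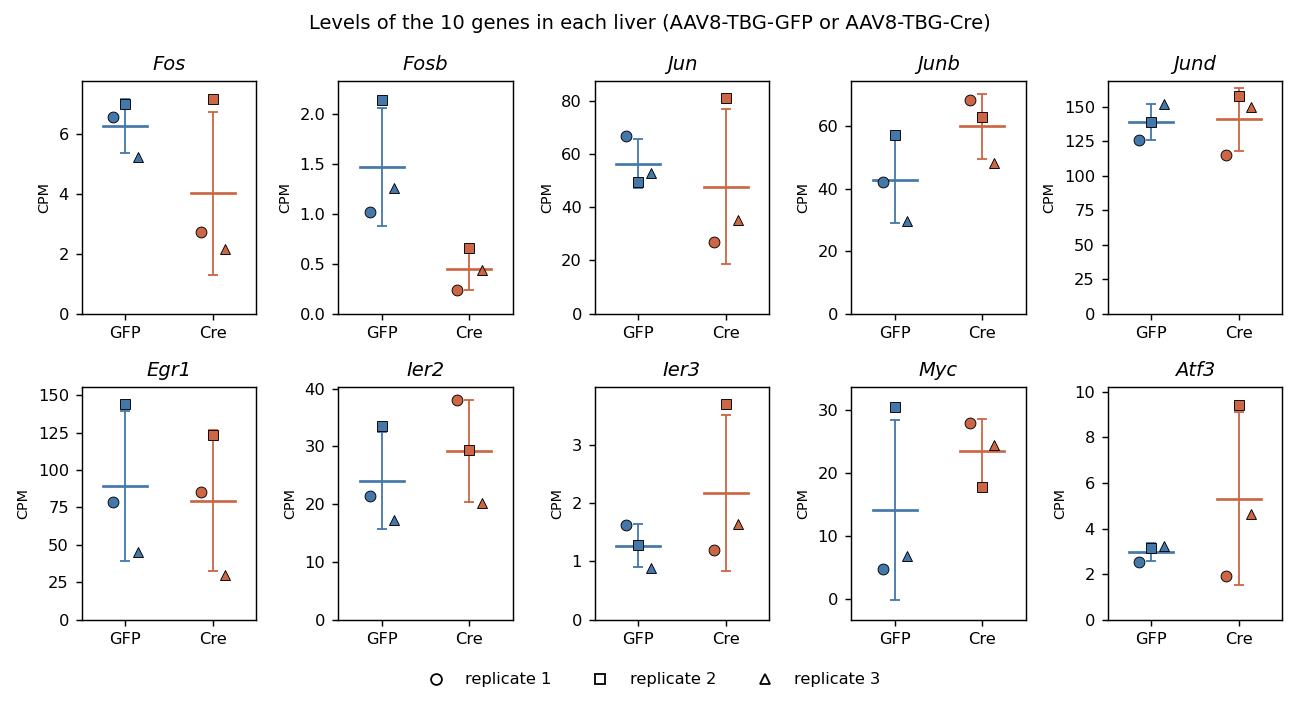
Level of each of the 10 genes in every liver, in CPM on a linear axis that includes 0, with its own scale for each gene. Points are single livers, horizontal bars are the means of 3 and vertical bars are their SD. Fosb is the 1 gene whose groups do not overlap, and Cre liver 2 is the highest liver for 5 genes.

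Fos encodes the founding Fos protein of AP-1. It stood at 6.56, 6.99 and 5.23 CPM in GFP and at 2.72, 7.15 and 2.17 CPM in Cre livers. Cre livers 1 and 3 lay below every GFP liver, while Cre liver 2 lay above them all. Its log2 fold change was -0.63 ± 0.43 (SE, edgeR adjusted p = 0.448; exact permutation p = 0.4).

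Fosb, a second Fos protein that pairs with Jun proteins, had the lowest level of the 10 genes in FPKM. In CPM it was also the lowest in every Cre liver, while in GFP livers the mean of Ier3 was lower. Its 1.02, 2.14 and 1.26 CPM in GFP livers rested on 20, 42 and 24 counts, and its 0.239, 0.657 and 0.433 CPM in Cre livers on 5, 16 and 9 counts. Every Cre liver lay below every GFP liver. This gave a log2 fold change of -1.70 ± 0.47 (SE), with an unadjusted p of 0.00709 and an adjusted p of 0.104 (edgeR; exact permutation p = 0.1). It passed the unadjusted threshold with each of the 6 livers left out in turn. At these counts the size of the difference is imprecise, and the gene was not tested where at least 10 counts were required in every library.

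Jun encodes the Jun protein that pairs with Fos and is the main target of the JNK kinases. It stood at 66.9, 49.4 and 52.9 CPM in GFP and at 26.9, 81.2 and 35.3 CPM in Cre livers. The pattern of Fos was seen again, with Cre livers 1 and 3 below all GFP livers and Cre liver 2 above them. Over all livers the log2 fold change was -0.24 ± 0.38 (SE, edgeR adjusted p = 0.767; exact permutation p = 0.5). Without Cre liver 2, Fos (log2 fold change -1.36) and Jun (-0.86) passed the unadjusted threshold as lower beside Fosb, as did 5.85% of all genes tested in that fit. Without Cre liver 1, Jun turned to 0.05.

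Junb, a Jun protein that can restrain the activity of Jun, stood at 42.2, 57.2 and 29.6 CPM in GFP and at 68.6, 63.0 and 48.4 CPM in Cre livers. Cre livers 1 and 2 lay above all GFP livers, and Cre liver 3 lay between them. The log2 fold change was 0.48 ± 0.24 (SE, edgeR unadjusted p = 0.0813, adjusted p = 0.302; exact permutation p = 0.2). Junb passed the unadjusted threshold as higher without GFP liver 2 (log2 fold change 0.74), where 9.17% of all genes did.

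Jund, the Jun protein found in most resting cells, was the steadiest of the 10 genes. It stood at 126, 139 and 152 CPM in GFP and at 115, 158 and 150.1 CPM in Cre livers. The values of the groups overlapped, and the log2 fold change of 0.02 ± 0.15 (SE, edgeR adjusted p = 0.956; exact permutation p = 1) was close to 0. Its sign turned when GFP liver 1 (-0.052), Cre liver 2 (-0.073) or Cre liver 3 (-0.030) was left out.

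Atf3, a stress-induced ATF/CREB protein that pairs with Jun proteins, stood at 2.54, 3.16 and 3.25 CPM in GFP livers. In Cre livers it stood at 1.91, 9.41 and 4.62 CPM, so that liver 1 lay below and livers 2 and 3 above every GFP liver. Its log2 fold change was 0.84 ± 0.50 (SE, edgeR adjusted p = 0.393; exact permutation p = 0.5). Without Cre liver 1, Atf3 (log2 fold change 1.24) passed the unadjusted threshold as higher, and so did Ier3 (1.08), beside 14.8% of all genes in that fit.

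Egr1 encodes a zinc finger protein induced through MAP kinases and by glucagon and fasting signals. It stood at 78.8, 144 and 45.3 CPM in GFP and at 85.5, 123 and 29.6 CPM in Cre livers. Each group held 1 low, 1 intermediate and 1 high liver, so the groups overlapped almost entirely. The log2 fold change was -0.17 ± 0.55 (SE, edgeR adjusted p = 0.889; exact permutation p = 0.8), and it turned to 0.36 without GFP liver 2 and to 0.22 without Cre liver 3.

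Ier2 and Ier3 belong to the immediate early response genes. Ier2, a nuclear protein, stood at 21.5, 33.5 and 17.3 CPM in GFP and at 37.9, 29.3 and 20.3 CPM in Cre livers (log2 fold change 0.28 ± 0.29 SE, edgeR adjusted p = 0.636; exact permutation p = 0.5). Ier3, a regulator of cell survival, stood at 1.63, 1.28 and 0.890 CPM in GFP and at 1.19, 3.70 and 1.64 CPM in Cre livers. The highest Ier3 value was again in Cre liver 2, and the groups overlapped for both genes. For Ier3 the log2 fold change was 0.79 ± 0.47 (SE, edgeR adjusted p = 0.388; exact permutation p = 0.4).

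Myc encodes a transcription factor that drives ribosome production and growth. It stood at 4.78, 30.5 and 6.86 CPM in GFP livers and at 27.9, 17.8 and 24.4 CPM in Cre livers. GFP liver 2 alone lay above all Cre livers, while the other two GFP livers lay below them. Over all livers the log2 fold change was 0.73 ± 0.62 (SE, edgeR adjusted p = 0.546; exact permutation p = 0.4). It was 2.01 without GFP liver 2, which passed the unadjusted threshold. Myc counts were divided among 4 transcripts of 2396 or 2399 bases in proportions that varied between libraries, and the gene total used here does not depend on that division.

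The libraries carry names of 2 forms that the labels do not explain, a short form (GFP livers 1 and 2 and Cre liver 1) and a long form (GFP liver 3 and Cre livers 2 and 3). The difference between vectors within each form was given as a log2 ratio of mean CPM. Of the 10 genes, 5 had the same direction in both forms and 5 had opposite directions. Fosb was lower in both (-2.73 short, -1.20 long), and so was Fos (-1.32 and -0.17). Junb (0.46 and 0.91), Ier2 (0.47 and 0.52) and Myc (0.66 and 1.62) were positive in both. Jun (-1.11 and 0.14), Egr1 (-0.38 and 0.75), Ier3 (-0.28 and 1.58), Atf3 (-0.58 and 1.11) and Jund (-0.21 and 0.02) were negative in the short and positive in the long form. Each form holds 1 liver of 1 vector, so these ratios have no replicate check.

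**Figure D2:**
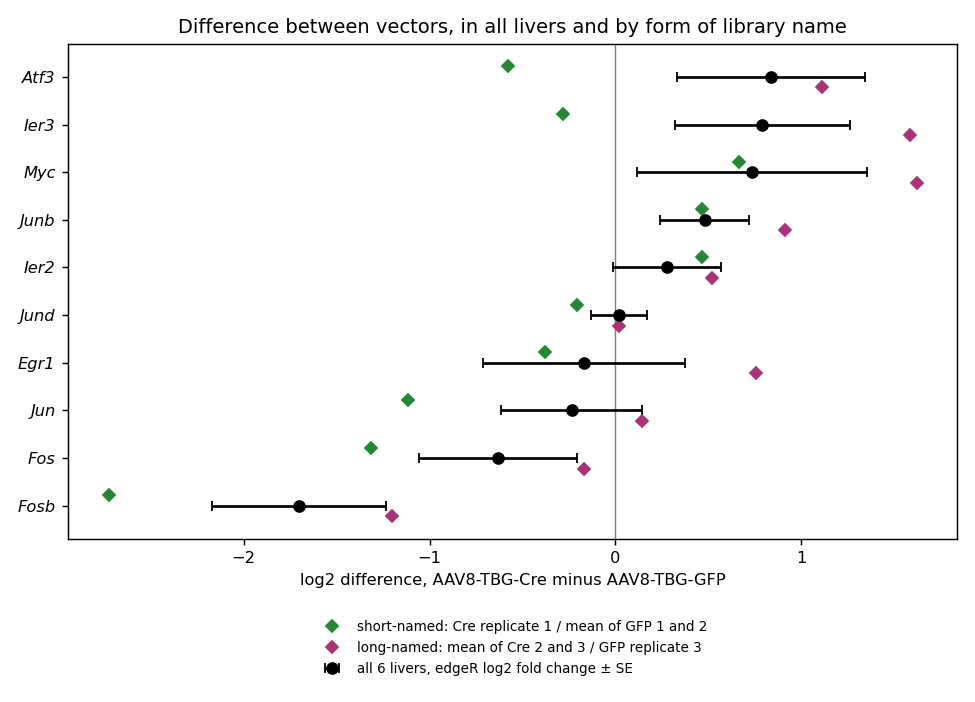
Log2 difference of AAV8-TBG-Cre from AAV8-TBG-GFP for each gene. Black points are the edgeR log2 fold change over all 6 livers with its SE, and diamonds are the log2 ratios within the short-named and the long-named libraries. Fosb lies farthest from 0 at -1.70, and the diamonds lie on opposite sides of 0 for 5 genes.

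Levels of the 10 genes varied more between livers of one group than those of most genes. The SD of log2 CPM within groups, pooled over both vectors, had a median of 0.62 over the 10 genes and 0.21 over all genes tested, and 9 of the 10 genes lay above that overall median. Myc (1.02, percentile 98.7), Egr1 (0.96, percentile 98.4) and Atf3 (0.81, percentile 97.0) varied most. Jund was the exception (0.20, percentile 45.9). Counting error is part of this spread for Fosb, which had 5 to 42 counts per library, whereas Egr1 had at least 616 counts in every library. In CPM, Cre liver 2 was the highest liver for 5 of the 10 genes, against 23.3% of all genes tested, and the lowest for 0, against 24.9%. The count of 5 depends on the scaling. In FPKM, Cre liver 2 was also highest for Egr1 (46.85 against 44.14 in GFP liver 2) and Junb (40.37 against 38.04 in Cre liver 1). The lowest liver was Cre liver 1 for 4 genes (14.1% of all genes), GFP liver 3 for 3 (16.6%), Cre liver 3 for 2 (14.8%) and GFP liver 1 for 1 (12.6%).

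**Figure D3:**
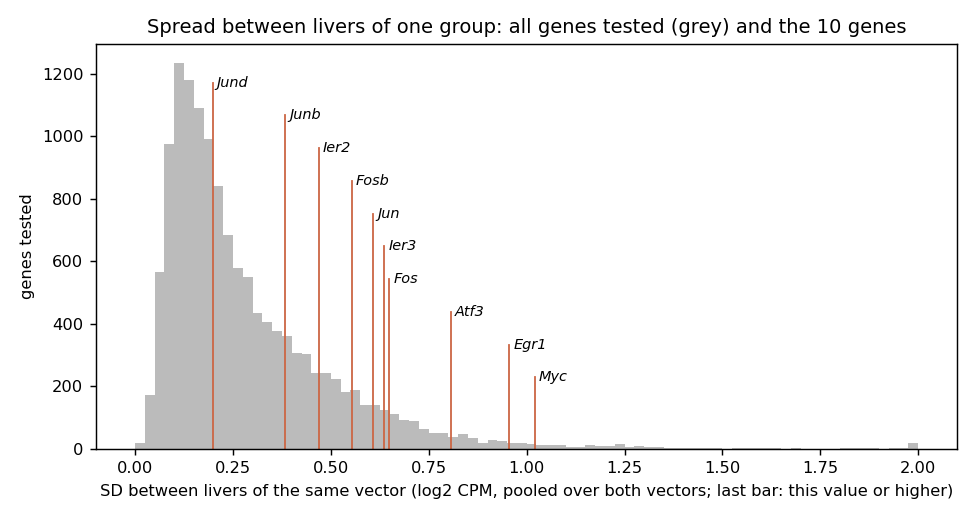
Spread between livers of a group, as the pooled SD of log2 CPM, for all 13431 genes tested (bars, number of genes) and for the 10 genes (marked). The median of all genes is 0.21 and that of the 10 genes is 0.62, with Jund at 0.20 and Myc at 1.02.

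Other genes of the pathway were described by lists, each read beside the shares of all genes tested given above. Counts with a liver left out are read beside the shares of that fit. These were 8.19% to 14.8% of all genes higher and 5.35% to 12.5% lower at the unadjusted threshold. Both shares were largest without Cre liver 1. Of 8 other AP-1 subunits, 5 were tested, 2 were higher at the unadjusted threshold and 0 lower (median log2 fold change 0.05). Batf2, a partner of Jun proteins in immune cells, stood at 0.254, 0.561 and 0.209 CPM in GFP and at 1.00, 0.863 and 0.770 CPM in Cre livers (1.34 ± 0.44 SE). These values rested on only 5, 11 and 4 counts in GFP and on 21, 21 and 16 counts in Cre livers. Jdp2, which represses AP-1 sites, stood at 2.90, 0.969 and 1.52 CPM and at 2.82, 4.52 and 3.42 CPM (1.00 ± 0.40 SE). Neither passed at the adjusted p (0.150 and 0.217, edgeR), and with GFP liver 3 left out neither passed the unadjusted threshold. Jdp2 also missed it without GFP liver 2, Cre liver 2 or Cre liver 3, and Batf2 without GFP liver 1 or Cre liver 1. Atf2 (-0.06 ± 0.09 SE) and Atf7 (0.05 ± 0.09 SE), constitutive partners of Jun, were close to 0, and the sign of Atf2 depended on the scaling (0.094 with limma on FPKM).

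Of 27 other immediate-early genes, 26 were tested, 5 were higher and 1 lower at the unadjusted threshold (median 0.23). The count of higher genes was 3 without GFP liver 2 or Cre liver 2 and 9 without Cre liver 1, and that of lower genes was 3 without GFP liver 3 and 0 without GFP liver 1 or Cre liver 3. Ier5, a nuclear relative of Ier2, was higher in every Cre liver. It stood at 6.56, 6.73 and 5.39 CPM in GFP and at 10.9, 14.1 and 11.6 CPM in Cre livers, a log2 fold change of 0.97 ± 0.16 (SE, edgeR adjusted p = 0.0460). It was the 1 gene of the list past the adjusted threshold, which it no longer passed when any liver other than Cre liver 1 was left out. Mcl1, an inhibitor of apoptosis, stood at 107, 113 and 112 CPM and at 138, 154 and 157 CPM (0.44 ± 0.11 SE, edgeR adjusted p = 0.0823). Sgk1, a kinase induced by serum and glucocorticoids, stood at 15.3, 14.3 and 16.9 CPM and at 18.1, 23.7 and 21.1 CPM (0.43 ± 0.13 SE, edgeR adjusted p = 0.131). Both Mcl1 and Sgk1 passed the unadjusted threshold with each liver left out. Btg1, an antiproliferative gene, stood at 52.1, 51.1 and 48.0 CPM and at 40.9, 45.1 and 36.2 CPM (-0.31 ± 0.11 SE, edgeR adjusted p = 0.177), and did not pass without GFP liver 1, GFP liver 2 or Cre liver 3. In FPKM the groups of Btg1 overlapped, with 8.62 in GFP liver 3 and 10.47 in Cre liver 2.

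All 25 kinases and factors upstream were tested, and 3 were higher and 2 lower at the unadjusted threshold (median -0.05). The higher count was 1 without GFP liver 2, GFP liver 3 or Cre liver 2, and the lower count was 1 without GFP liver 3. Map3k1, a kinase that activates the JNK pathway, stood at 14.6, 12.7 and 14.8 CPM in GFP and at 20.7, 30.8 and 22.4 CPM in Cre livers (0.81 ± 0.17 SE, edgeR adjusted p = 0.0619). Rps6ka1, a kinase below ERK, stood at 23.7, 17.7 and 25.3 CPM and at 16.6, 14.8 and 10.0 CPM (-0.69 ± 0.21 SE, edgeR adjusted p = 0.134). These genes passed the unadjusted threshold with each liver left out. Map3k7 (-0.29 ± 0.09 SE), the kinase TAK1, did not pass it without GFP liver 3, and Mapk7 (0.76 ± 0.30 SE), the kinase ERK5, did not pass it without GFP liver 2, GFP liver 3 or Cre liver 2. In FPKM the groups of Rps6ka1 overlapped, with 5.41 in GFP liver 2 and 5.58 in Cre liver 2. Those of Map3k7 also overlapped, with 7.60 in GFP liver 1 and 7.85 in Cre liver 2.

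All 14 feedback phosphatases and inhibitors were tested, and 3 were higher and 1 lower at the unadjusted threshold (median 0.19). The higher count was 0 without GFP liver 1 or Cre liver 2 and 1 without GFP liver 2 or 3. Dusp1, an immediate-early phosphatase that inactivates JNK and p38, had a lower mean in Cre livers. It stood at 43.5, 75.7 and 52.6 CPM in GFP and at 43.3, 26.0 and 21.1 CPM in Cre livers, so that liver 1 of either vector lay at the border of the groups. In FPKM, which is scaled differently, the groups overlapped, with 21.5 in GFP liver 1 and 22.6 in Cre liver 1. The log2 fold change was -0.92 ± 0.30 (SE, edgeR adjusted p = 0.145), and the call was lost without GFP liver 2 or Cre liver 2. Dusp8 (1.07 ± 0.37 SE) and Dusp4 (0.93 ± 0.38 SE), phosphatases of the same family, and Spred1 (0.31 ± 0.12 SE), an inhibitor of Ras signalling, had adjusted p of 0.165, 0.220 and 0.205 (edgeR). All of these calls were lost without GFP liver 1 or Cre liver 2.

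Of 18 ligands and receptors, 15 were tested, 2 were higher and 1 lower at the unadjusted threshold (median 0.05). The lower count was 3 without GFP liver 3 and 0 without Cre liver 3. Hbegf, a ligand of the EGF receptor, stood at 0.407, 0.357 and 0.419 CPM in GFP and at 1.05, 1.52 and 0.866 CPM in Cre livers (1.53 ± 0.37 SE, edgeR adjusted p = 0.0812), and passed the unadjusted threshold with each liver left out. Its values rested on 8, 7 and 8 counts in GFP and on 22, 37 and 18 counts in Cre livers. The size of the Hbegf difference is therefore imprecise, and the gene was not tested where at least 10 counts were required in every library. Ereg, another ligand of the EGF receptor, had a log2 fold change of 1.57 ± 0.61 (SE, edgeR adjusted p = 0.205). It rested on 4, 3 and 9 counts in GFP and on 10, 34 and 12 counts in Cre livers. Ereg was not called without GFP liver 1, GFP liver 2 or Cre liver 2. Met, the receptor of hepatocyte growth factor, stood at 109.8, 132 and 96.8 CPM and at 96.2, 72.1 and 76.1 CPM (-0.47 ± 0.16 SE, edgeR adjusted p = 0.161), and was not called without GFP liver 2, Cre liver 2 or Cre liver 3. Tnfrsf1b, a receptor of tumour necrosis factor, did not pass (-0.31 ± 0.14 SE).

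All 8 AU-rich element binding proteins, which control the decay of short-lived mRNAs, were tested, with 1 higher, 0 lower and a median of 0.06. The higher gene was Tia1 (0.45 ± 0.17 SE, edgeR adjusted p = 0.192), which was not called without GFP liver 2, GFP liver 3, Cre liver 1 or Cre liver 2. Zfp36, an immediate-early gene that speeds the decay of such mRNAs and is also on the list of other immediate-early genes, stood at 187, 116 and 238 CPM in GFP and at 134, 143 and 113 CPM in Cre livers. Its log2 fold change of -0.47 ± 0.25 (SE, edgeR adjusted p = 0.322) did not pass, nor did those of Elavl1 (0.21 ± 0.18 SE) and Khsrp (0.22 ± 0.18 SE).

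Of 17 textbook AP-1 target genes, 16 were tested, 9 were higher and 0 lower at the unadjusted threshold (median 1.13). The higher count ranged from 7 without GFP liver 1 to 12 without Cre liver 1. Spp1, which encodes osteopontin, stood at 89.0, 38.0 and 73.3 CPM in GFP and at 295, 457 and 219 CPM in Cre livers (2.28 ± 0.37 SE, edgeR adjusted p = 0.0444). It passed the unadjusted threshold with each liver left out, but not the adjusted threshold when any liver other than Cre liver 1 was left out. Timp1, an inhibitor of matrix proteases, had a log2 fold change of 2.17 ± 0.42 (SE, edgeR adjusted p = 0.0595), and Cd44, a receptor of hyaluronan, one of 1.38 ± 0.32 (SE, edgeR adjusted p = 0.0785). Both were higher in every Cre liver.

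Markers of some other cell types were higher in the same livers as these targets. All 8 cholangiocyte markers, a list that also holds Spp1, were higher at the unadjusted threshold, 4 of 8 stellate cell and fibroblast markers were higher, and of 9 macrophage and Kupffer cell markers 5 were higher and 1 lower (summed level 167 to 209 CPM in GFP and 265 to 438 CPM in Cre livers). For this list 3 were higher without GFP liver 3 and 2 lower without GFP liver 2. Of 5 neutrophil markers tested, 3 were higher and 1 lower, with sums of 14.7 to 16.4 and 18.9 to 21.9 CPM, and 0 were lower without GFP liver 2 or Cre liver 3. The 8 hepatocyte markers had a median of 0.03, with 4 positive and 4 negative. The 8 endothelial markers were all on the negative side (median -0.31), with 0 higher and 1 lower at the unadjusted threshold, 6 lower without GFP liver 3 and 0 lower without GFP liver 1. T and NK cell markers (3 tested) and B cell markers (1 tested) were mostly too low to test. At the adjusted threshold Cldn4 (5.75 ± 0.91 SE), Sox9 (1.63 ± 0.27 SE) and Spp1 of the cholangiocyte list and S100a8 (2.10 ± 0.33 SE) of the neutrophil list were higher and Cd163 (-2.21 ± 0.28 SE) of the macrophage list was lower, none of which held when any liver other than Cre liver 1 was left out. Over the alternative settings the log2 fold change of Cldn4 ranged from 1.52 to 6.14, so its size is imprecise. In bulk liver, more cells of a type and more RNA per cell cannot be told apart. The part of these cells in the levels of the AP-1 targets, of Fosb or of the other members was not tested.

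Of 10 Myc partners 9 were tested, 1 was higher and 0 lower (median 0.02). The higher gene was Mga, a Max-binding repressor (19.7 to 20.8 CPM in GFP and 24.7 to 29.2 CPM in Cre livers, 0.42 ± 0.10 SE, edgeR adjusted p = 0.0833). The count of higher Myc partners was 3 without Cre liver 1, and 1 was lower without GFP liver 2, GFP liver 3 or Cre liver 1. Max (0.30 ± 0.15 SE), the obligate partner of Myc, and the antagonists Mxd1 (0.38 ± 0.17 SE) and Mxi1 (-0.28 ± 0.13 SE) did not pass. All 16 textbook Myc target genes were tested, with 2 higher, 0 lower and a median of 0.15. Nop58, a ribosome assembly factor (0.61 ± 0.21 SE), and Cdk4, a cell cycle kinase (0.32 ± 0.10 SE), were the higher genes (edgeR adjusted p = 0.160 and 0.147), and the count was 0 without GFP liver 1, 3 without Cre liver 1 and 1 without any other liver. It was 4 with upper quartile factors and 7 with limma on log2(FPKM + 1). The nucleolar genes Npm1 (0.26 ± 0.09 SE) and Ncl (0.23 ± 0.12 SE) did not pass.

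Heat shock genes, which like Atf3 are induced by cell stress, differed widely between livers of one group. All 10 were tested, with 3 higher, 0 lower and a median of 0.75. Hspa1b stood at 27.6, 25.0 and 94.1 CPM in GFP and at 20.4, 314 and 817 CPM in Cre livers, and Hspa1a at 3.30, 2.81 and 5.23 CPM and at 1.10, 30.1 and 49.9 CPM. Both were highest in the long-named Cre livers 2 and 3 and lowest in Cre liver 1, so the groups overlapped. These genes are near-identical copies between which reads can be divided wrongly. Hspa8 (0.69 ± 0.29 SE) was the third higher gene, and Hsph1 (1.24 ± 0.56 SE) did not pass. The count of higher genes was 7 without Cre liver 1, 2 without GFP liver 3 and 0 without any other liver. Atf3, like these genes, was lowest in Cre liver 1 and above all GFP livers in Cre livers 2 and 3, and a relation between them was not tested.

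**Figure D4:**
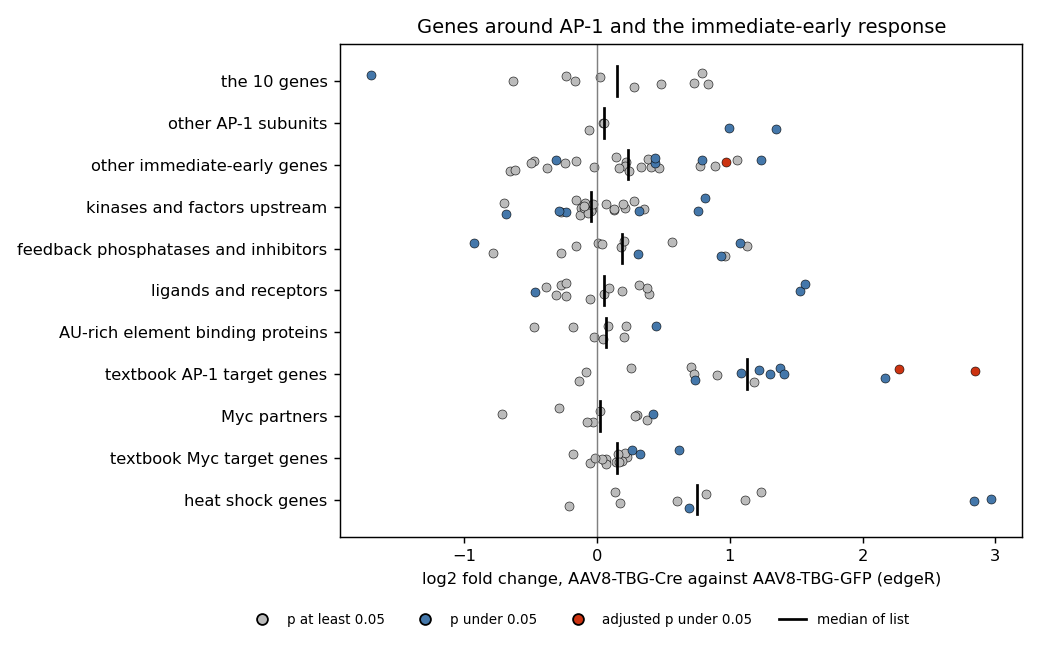
Log2 fold change (AAV8-TBG-Cre against AAV8-TBG-GFP, edgeR) of every tested gene in the 10 genes and 10 surrounding lists. Points are genes, coloured by p, and black bars are list medians, which lie between -0.05 (kinases and factors upstream) and 1.13 (textbook AP-1 target genes), against 0.15 for the 10 genes.

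Genes with the pattern most like a member were found by the root mean square difference of centred log2 CPM over the 6 livers, among 11296 genes. Closest to Fos was Zfp991, a zinc finger gene (0.25), followed by Podn and Cyp2c29. Closest to Jun were D630045J12Rik (0.19), Hba-a1 (0.21), an alpha globin gene whose reads are shared with a near-identical copy, and Dusp6 (0.21). Dusp6, the ERK phosphatase, stood at 57.6, 48.5 and 63.4 CPM in GFP and at 30.9, 75.2 and 45.2 CPM in Cre livers, with the same high Cre liver 2 as Jun. Closest to Egr1 were Cep290 (0.33), Igfbp5 and Prickle1. Closest to Myc were Foxq1 (0.33), Phlda1 and Hamp, which encodes hepcidin, the hormone of iron balance. Foxq1 stood at 16.6, 105 and 27.5 CPM and at 94.8, 35.7 and 93.8 CPM, with the same high GFP liver 2. Closest to Atf3 were Gnai1 (0.19), Ptafr (0.21) and Plau (0.22). With 6 livers and this many genes some close patterns are always found, and these are given as a description.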

How the data were processed

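RNA-seq of 6 livers was analysed, 3 per vector, grouped by the sample labels. For each transcript the authors deposited an expected count, not normalized, and FPKM, scaled by transcript length and mapped fragments. The submitters' processing notes list HISAT2, Bowtie2, RSEM and mm10, and the study's methods name STAR, HTSeq and DESeq2; versions and strand setting are not given in the sources used here. Expected counts were summed by NCBI gene ID and rounded (45.4% of the transcript values listed in the 6 libraries were exactly whole as deposited). Totals were 20356440 to 21010508 per library.

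The main test was edgeR 4.0.16 (R 4.3.3) quasi-likelihood with TMM, filterByExpr and vector as the only factor, on 13431 of 18419 genes with a count. SEs derive from the quasi-F statistic. As a check for a library deposited more than once, libraries of one vector were compared by chi-square (26.5 or more per gene), and none were counted as one. The labels name no shared culture or litter, and each liver was treated as independent. The p-values rest on the spread between these livers, which includes any difference between the name forms. Exact permutation tests used log2 CPM. CPM carries counting error, which is large near 1 CPM. The analysis was tested on simulated counts.

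The other settings tried were DESeq2 1.42.0, factors by RLE or upper quartile, other count filters, the replicate number as a block, the name form as a covariate, limma 3.58.1 on log2(FPKM + 1) or log2(FPKM + 0.1), a threshold of 1.5-fold, and omitting each liver. Same-numbered libraries did not deviate together (correlations 0.0091, -0.263 and 0.209), so the numbers were not used as pairs.

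The text names the 10 genes, from each pathway list genes past the adjusted threshold and the 4 smallest p-values, and from each cell type list genes past the adjusted threshold. It also names the 3 genes most like Fos, Jun, Egr1, Myc and Atf3 (mean log2 CPM of at least 1). One gene named by this rule is not reported here. Cell type lists are otherwise given by their counts and sums. Members and lists were chosen with earlier results of these data known. Of 60 marker genes 2 were not matched. Promoter sequences come from RefSeq, GRCm38.p6.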

Additional observations from a re-analysis of the deposited data

How the results depend on the processing

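Of 157 log2 fold changes of the 10 genes under the alternatives, 148 kept their direction and side of the adjusted threshold, 8 turned their sign and 1 (Fosb with DESeq2, adjusted p 0.0387) newly passed. The cause was not tested for any of them. DESeq2 thus called 1 gene at the adjusted threshold, against 0 in edgeR. The count of lower genes at the unadjusted threshold, 1, was 0 with at least 10 counts in every library and with limma on log2(FPKM + 1) or log2(FPKM + 0.1), because the filters left 9 of the 10 genes and not Fosb. The count of higher genes, 0, was 1 (Junb) with filtered limma on either scale and with the library name form as covariate. Without the filter, limma on log2(FPKM + 1) left this count at 0 (Junb unadjusted p = 0.0546). With the replicate block it was 1 (Junb), with 2 lower (Fos and Fosb), although the numbers do not pair the samples. With each liver left out the counts ranged from 0 to 2 higher, from 1 to 3 lower and from 0 to 0 at the adjusted threshold, while the same fits called 8.19% to 14.8% of all genes higher and 5.35% to 12.5% lower at the unadjusted threshold. Signs turned for Jund (-0.097) and Egr1 (0.18) with the name form, for Jund without AAV8-TBG-GFP replicate 1 (-0.052), AAV8-TBG-Cre replicate 2 (-0.073) or 3 (-0.030), for Egr1 without AAV8-TBG-GFP replicate 2 (0.36) or AAV8-TBG-Cre replicate 3 (0.22), and for Jun without AAV8-TBG-Cre replicate 1 (0.050). Atf2 turned to 0.094 with limma on log2(FPKM + 1), with or without the filter, and to 0.10 with log2(FPKM + 0.1). With each liver left out the range was -0.073 to 0.15 for Jund, -0.64 to 0.36 for Egr1 and -0.86 to 0.050 for Jun. The FPKM fits moved the median of all genes from -0.0065 to 0.11 (log2(FPKM + 1)), 0.066 (without the filter) and 0.14 (log2(FPKM + 0.1)). Over all genes, the unadjusted calls, 1618 higher and 1129 lower, became 1922 and 737 with upper quartile factors and 1880 and 365 with limma on log2(FPKM + 1), 1995 and 376 on log2(FPKM + 0.1) and 2019 and 364 without the filter. Adjusted calls over all genes were 65 higher and 60 lower, 753 and 412 with DESeq2, 49 and 58 with RLE, 31 and 35 with upper quartile factors, 235 and 137 without a filter on low counts, 28 and 48 with at least 10 counts in every library, 1 and 6 with the replicate block, and 84 and 121 with the name form. With one liver left out they ranged from 0 and 0 (without AAV8-TBG-GFP replicate 2 or AAV8-TBG-Cre replicate 2) to 576 and 352 (without AAV8-TBG-Cre replicate 1). Counts of higher genes in the lists ranged over all alternatives from 0 to 3 (other AP-1 subunits), 3 to 9 (other immediate-early genes), 1 to 4 (kinases), 0 to 4 (feedback), 0 to 3 (ligands and receptors), 0 to 1 (AU-rich element binding), 7 to 12 (AP-1 targets), 1 to 3 (Myc partners), 0 to 7 (Myc targets), 0 to 7 (heat shock) and 5 to 8 (cholangiocyte). The depth limits Fosb most, with 5 to 42 counts per library, and the SE of the 10 log2 fold changes lay between 0.15 and 0.62.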
